A study of Homo sapiens with 6 samples.

Results

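The UDP-glucuronosyltransferase (UGT) family was examined in OVSAYO cells, which grow from a clear cell carcinoma of the ovary, after miR-30a and miR-30d were inhibited. The genes described are UGT2B7, UGT2B10, UGT2B11, UGT2B28, UGT2B15, UGT2A3, UGT1A1, UGT1A6 and UGT8. They were chosen as a family on the basis of this contrast, after UGT2B10 and UGT2B28 had been seen to differ between the groups in these same arrays, so their differences between groups are given as a description and carry no test. Every probe whose platform annotation gave 1 of these 9 symbols alone was taken, which came to 15 of the 48803 probes on the array.

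The study hybridised total RNA to 6 Illumina arrays with a single colour, 3 per group, 48 hours after transfection. The control group received 66 nM of a hairpin inhibitor built on a worm microRNA with little similarity to human ones. The inhibitor group received a mix of 2 hairpin inhibitors, that of miR-30a at 44 nM and that of miR-30d at 22 nM. The labels of all 6 samples and their treatment protocol say inhibitor, while the series' design text speaks of mimics used for a knockdown. The sample labels are followed here, and with a mimic the direction of the treatment behind every difference would be the opposite. All cultures are of the same cell line and all were transfected. The labels number the samples of a group as biological replicates without saying what separates them, so the spread between arrays may be partly technical. The mature microRNA that gives the group its name, miR-30a-5p, is shown with its seed (bases 2 to 8) in capitals, since the main inhibitor is directed at it. The sequence is RefSeq's, from chr6:71403595-71403616 on the minus strand of GRCh38.p14.
hsa-miR-30a-5p: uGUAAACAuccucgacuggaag

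UGT enzymes sit in the membrane of the endoplasmic reticulum and transfer a sugar from a UDP-sugar to small lipid-soluble molecules. The UGT1 and UGT2 enzymes use UDP-glucuronic acid, and the glucuronides they make from steroids, bilirubin, bile acids and drugs are water-soluble and are exported from the cell. The liver, kidney and gut are the tissues best known for them. UGT8 belongs to the same superfamily but uses UDP-galactose to make galactosylceramide, a lipid of myelin. The UGT1A genes are alternative starting exons joined to shared downstream exons, so a probe in the shared part reads all of them. The UGT2B genes are separate, closely similar genes. In the RefSeq annotation the protein-coding UGT genes of chromosome 4 follow each other in the order UGT2B17, UGT2B15, UGT2B10, UGT2A3, UGT2B7, UGT2B11, UGT2B28, UGT2B4, UGT2A1, UGT2A2 and, further along, UGT8, while UGT1A6 and UGT1A1 lie on chromosome 2.

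RefSeq promoter windows of GRCh38.p14, from 250 bases before a gene's start to 50 bases after it, were at hand for 8 of the 9 genes, 11 windows in all. UGT2B10, UGT2B11 and UGT2B7 are printed as genes of 1 cluster whose probes had log2 fold changes of both signs. Whether these genes differ in their response was not tested, and nothing is read from the windows about it. Capitals mark TTTATG or its reverse complement CATAAA, the core that the intestinal factor CDX2 recognises.
UGT2B10, chr4:68815744-68816043, plus strand: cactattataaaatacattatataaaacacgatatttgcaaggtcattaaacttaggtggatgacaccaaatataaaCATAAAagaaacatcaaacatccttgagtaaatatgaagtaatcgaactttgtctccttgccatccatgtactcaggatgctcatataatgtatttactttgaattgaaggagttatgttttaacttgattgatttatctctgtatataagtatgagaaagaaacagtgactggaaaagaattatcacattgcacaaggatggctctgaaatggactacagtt
UGT2B11, chr4:69214699-69214998, minus strand: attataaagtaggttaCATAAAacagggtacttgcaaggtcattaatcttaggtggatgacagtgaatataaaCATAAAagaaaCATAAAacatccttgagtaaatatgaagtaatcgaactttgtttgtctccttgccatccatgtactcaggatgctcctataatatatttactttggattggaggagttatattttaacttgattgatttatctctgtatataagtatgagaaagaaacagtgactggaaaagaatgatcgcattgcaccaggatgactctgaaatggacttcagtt
UGT2B7, chr4:69096224-69096523, plus strand: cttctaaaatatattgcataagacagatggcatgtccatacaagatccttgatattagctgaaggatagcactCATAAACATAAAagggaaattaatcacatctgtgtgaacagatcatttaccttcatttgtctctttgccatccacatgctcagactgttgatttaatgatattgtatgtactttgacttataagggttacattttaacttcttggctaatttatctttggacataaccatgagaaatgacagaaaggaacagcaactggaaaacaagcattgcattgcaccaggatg

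These letters occurred, on either strand, in all 5 UGT2 windows (UGT2B15, UGT2B10, UGT2A3, UGT2B7 and UGT2B11) and in 0 of the 6 windows of UGT1A6, UGT1A1 and UGT8. They occur in 10.6% of the 35116 promoter windows of that annotation. The UGT2 windows are related by descent and are not independent of each other. In UGT2B7 and UGT2B11 a match began 177 bases before the start, in UGT2B10 and UGT2A3 173 bases before it, and in UGT2B15 178 bases before it. The letters GTTAAT or ATTAAC, part of the site of the factor HNF1, were also searched for. They occurred in 0 of the 5 UGT2 windows. Of the 6 windows of UGT1A6, UGT1A1 and UGT8, 2 had them, at −75 from the start in UGT1A6 and −66 in UGT1A1. They occur in 6.88% of all 35116 windows. When the windows were aligned over their whole length, UGT2B10 and UGT2B11 were identical at 90.1% of the aligned columns. UGT2B7 was identical to UGT2B10 at 63.1% and to UGT2B11 at 64.0%. Windows of a UGT2B gene against one outside the UGT2B group gave 40.9% to 54.0%.

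The arrays were alike in brightness, with a mean raw signal of 222.6 to 258.5 and 43.4% to 45.2% of the probes detected. A probe is called detected on an array where its detection score, read as 1 minus the detection p, is above 0.95. Control replicate 2 and inhibitor replicate 3 stood apart. On the leading principal component, which held 42.1% of the variance of the detected probes, the controls lay at −4.12, −15.7 and −1.67, inhibitor replicates 1 and 2 at 17.5 and 13.2, and inhibitor replicate 3 at −9.11. UGT values without those 2 arrays are therefore given below. All 11 of the 12 clear cell and epithelial markers that had a named probe were detected, and their summed background-corrected intensity ran from 31796 to 35201 in the controls and from 31821 to 35321 with the inhibitors. EPCAM, CDH1 and MUC1 carried most of that sum, with log2 means of 13.3, 13.0 and 12.9 in the controls. ANXA4, GLRX and NAPSA were at 6.1, 6.9 and 6.4. Single markers differed more than the sum: GLRX, a glutaredoxin of the clear cell list, had a log2 fold change of −0.44 ± 0.13 (SE), with groups that did not overlap. Of markers of other cell types, 4 of 8 for hepatocytes, 4 of 7 for enterocytes, 2 of 8 for fibroblasts, 3 of 8 for leukocytes and 2 of 7 for endothelium were detected, while PTPRC, the pan-leukocyte marker, was detected on 0 arrays. These counts take a probe detected on at least 3 arrays, which 12183 of all 18852 named genes had. The summed intensity of the hepatocyte markers was 369.0 to 411.5 in the controls and 367.5 to 384.8 with the inhibitors, and that of the enterocyte markers was 51.9 to 73.3 and 47.5 to 64.2. The hepatocyte sum is mostly SERPINA1, with a log2 mean of 8.34 in the controls. ALB, TTR and CYP2E1 were at 5.06, 4.98 and 5.57. PECAM1, an endothelial adhesion molecule, had −0.32 ± 0.09 and SI, the sucrase-isomaltase of enterocytes, −0.28 ± 0.11. GLRX, PECAM1 and SI were picked after their values were seen, none passed after adjustment, and the part of the markers in the UGT values was not tested.

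Of the 15 UGT probes, 9 were detected on all 6 arrays, as were 18999 of all 48803 probes. The 9 cover UGT2B7, UGT2B10, UGT2B28, UGT1A6 (3 probes), UGT2B11 (2 probes) and UGT8 (1 of 2 probes). The other 6 probes were detected on 0 of the 6 arrays, with raw signals of 34.1 to 49.2, where the median of all undetected probes was 39.6 to 45.4 depending on the array. They are both probes of UGT2B15, an androgen-conjugating enzyme, both of UGT2A3, a bile acid-conjugating enzyme, the probe of UGT1A1, the bilirubin-conjugating enzyme, and the second probe of UGT8. For these the arrays give only an upper bound at background, and no fold change is given. An undetected probe does not show that the transcript is absent.

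**Figure D1:**
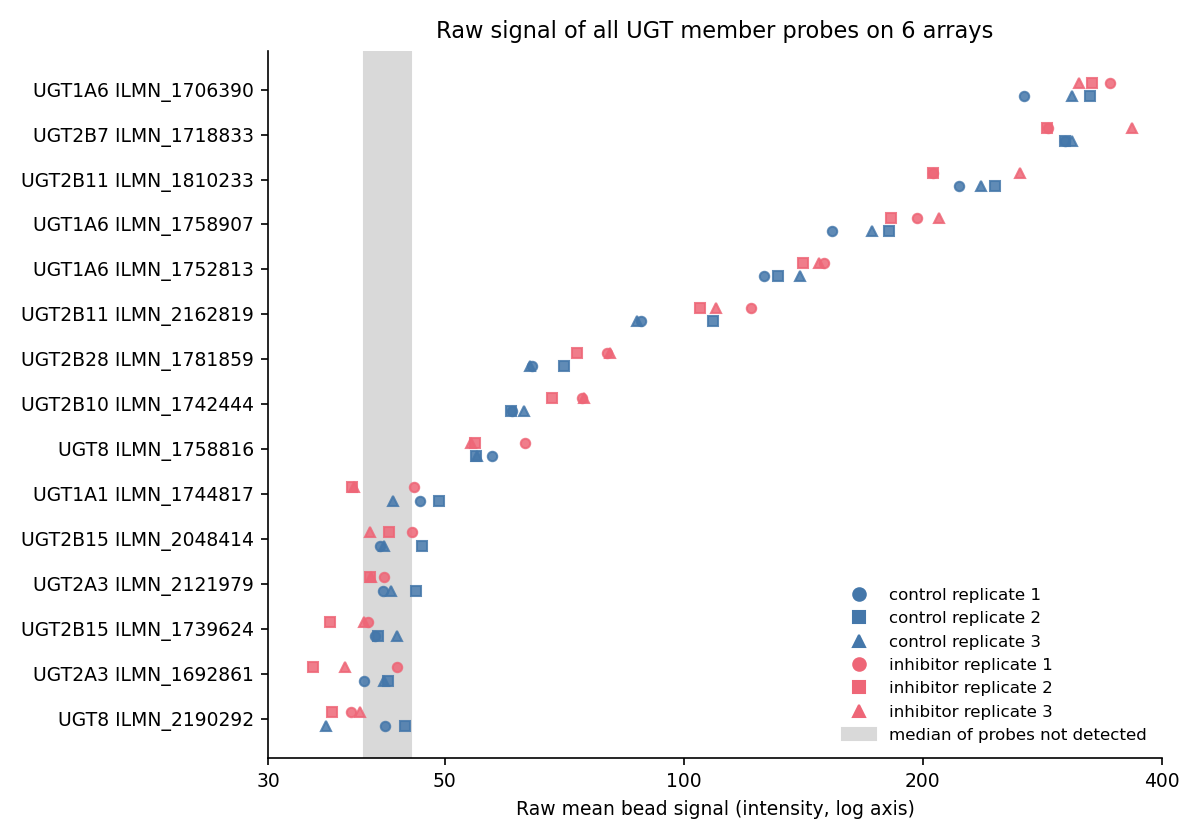
Raw mean bead signal (x axis, log scale, not normalized between arrays) of the 15 UGT probes on the 3 control and 3 inhibitor arrays, 1 point per array, with the range of the median of undetected probes shaded. The 6 undetected probes lie at 34.1 to 49.2, and the 9 detected probes at 53.9 to 366.7.

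The comparison asks which UGT transcripts differed when miR-30a and miR-30d were inhibited. Values are background-corrected, quantile-normalized log2 intensities from limma's neqc, in which an offset of 16 is added before the logarithm, so the fold changes of dim probes are understated. Over the whole table of 21928 probes detected on at least 3 arrays, 0 (0%) passed an adjusted p of 0.05 with limma, UGT probes included, and no adjusted p was under 0.440. An unadjusted limma p under 0.05 was reached by 2199 probes (10.0%), and a per-probe test that does not pool variances gave 1408 such probes and 0 after adjustment. Of the 9 detected UGT probes, 3 were higher at an unadjusted limma p under 0.05, where 4.83% of all probes were, and 1 was lower, where 5.19% were. All inhibitor arrays exceeded all control arrays in 3 UGT probes, against 8.40% of all probes, and fell short of them all in 1, against 7.12%. Since earlier results of this contrast led to the choice of the family, nothing is read from these counts.

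UGT2B10, which attaches glucuronic acid to nitrogen atoms of compounds such as nicotine, was the UGT gene with the highest fold change. Its probe ILMN_1742444 had raw signals of 60.8, 60.6 and 62.9 on the control arrays and 74.5, 68.3 and 74.8 on the inhibitor arrays. Each is a mean over 40 to 55 beads with a standard error of 1.83 to 3.36. After normalization the controls were at 5.12, 4.98 and 5.20 and the inhibitor arrays at 5.48, 5.52 and 5.57. The groups did not overlap, and control replicate 2 was the lowest array. The means were 5.10 ± 0.11 and 5.52 ± 0.05 (SD, n = 3), a log2 fold change of 0.42 ± 0.08 (SE), or 1.34-fold. In a bulk measurement such as this, more cells with the transcript and more transcript per cell cannot be told apart. Of all 21928 probes, 16 had a log2 fold change as high as that or higher, UGT2B10 included. This rank uses the difference that led to the choice of the family, so nothing is read from it.

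UGT2B28, a steroid-conjugating enzyme and the neighbour of UGT2B11 in the cluster, came next. The probe ILMN_1781859 had raw signals of 64.5, 70.7 and 64.1 in the controls and 80.1, 73.5 and 80.7 with the inhibitors, with bead standard errors of 2.51 to 3.58. The normalized values were 5.28, 5.40 and 5.24 against 5.63, 5.68 and 5.72. Again every inhibitor array lay above every control array, by at least 0.23. The means were 5.31 ± 0.08 and 5.67 ± 0.04 (SD, n = 3), a log2 fold change of 0.37 ± 0.08 (SE), or 1.29-fold. Both UGT2B10 and UGT2B28 were dim, with control signals of 60.6 to 70.7 where undetected probes had medians of 43.0 to 45.4 on the same arrays. On inhibitor replicates 1, 2 and 3 those medians were 43.2, 39.6 and 41.1. Without background correction the log2 fold change was smaller, at 0.25 for UGT2B10 and 0.23 for UGT2B28. The part of the background in these differences was not tested. The values of the authors' series table were given the same offset as the main processing before the logarithm. The log2 fold changes were then also smaller, at 0.18 for UGT2B10 and 0.17 for UGT2B28. How much of that is due to the added offset and how much to the authors' processing was not tested. With median centring the log2 fold changes were larger, at 0.48 and 0.44.

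UGT2B11, whose substrates are less well described than those of its neighbours, has 2 probes on the array, and they went opposite ways. The dimmer probe, ILMN_2162819, was at 6.06, 6.35 and 5.96 in the controls and at 6.46, 6.38 and 6.30 with the inhibitors. Its log2 fold change was 0.26 ± 0.10 (SE), and the groups overlapped through control replicate 2, the highest control array. The brighter probe, ILMN_1810233, was at 7.77, 7.81 and 7.76 in the controls and at 7.39, 7.54 and 7.76 with the inhibitors. Its log2 fold change was −0.21 ± 0.10, and the highest inhibitor array, replicate 3, equalled the lowest control to 2 decimals while lying just below it. The difference between the 2 probes within an array was 1.71, 1.46 and 1.80 in the controls and 0.93, 1.16 and 1.46 with the inhibitors, so the groups met at control replicate 2 and inhibitor replicate 3. With median centring ILMN_1810233 had −0.075. A UGT2B11 change in either direction can thus not be given from these probes. The beads of the brighter probe also varied most among the UGT2B probes, with standard errors of 10.4 to 16.5 on raw signals of 205.9 to 265.2.

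UGT2B7, which conjugates morphine, oestrogens and many anti-inflammatory drugs, had its probe ILMN_1718833 at 8.27, 8.12 and 8.19 in the controls and at 7.93, 8.06 and 8.27 with the inhibitors. The groups overlapped, with inhibitor replicate 3 as high as the highest control. The log2 fold change was −0.11 ± 0.10 (SE), and it was 0.035 when arrays were centred on their medians and not quantile-normalized, a setting that moved the median of all probes to 0.10. Without inhibitor replicate 3 the log2 fold change was −0.20, and without inhibitor replicate 1 it was −0.03. Whether UGT2B7 differs from UGT2B10 and UGT2B28 in its response was not tested.

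**Figure D2:**
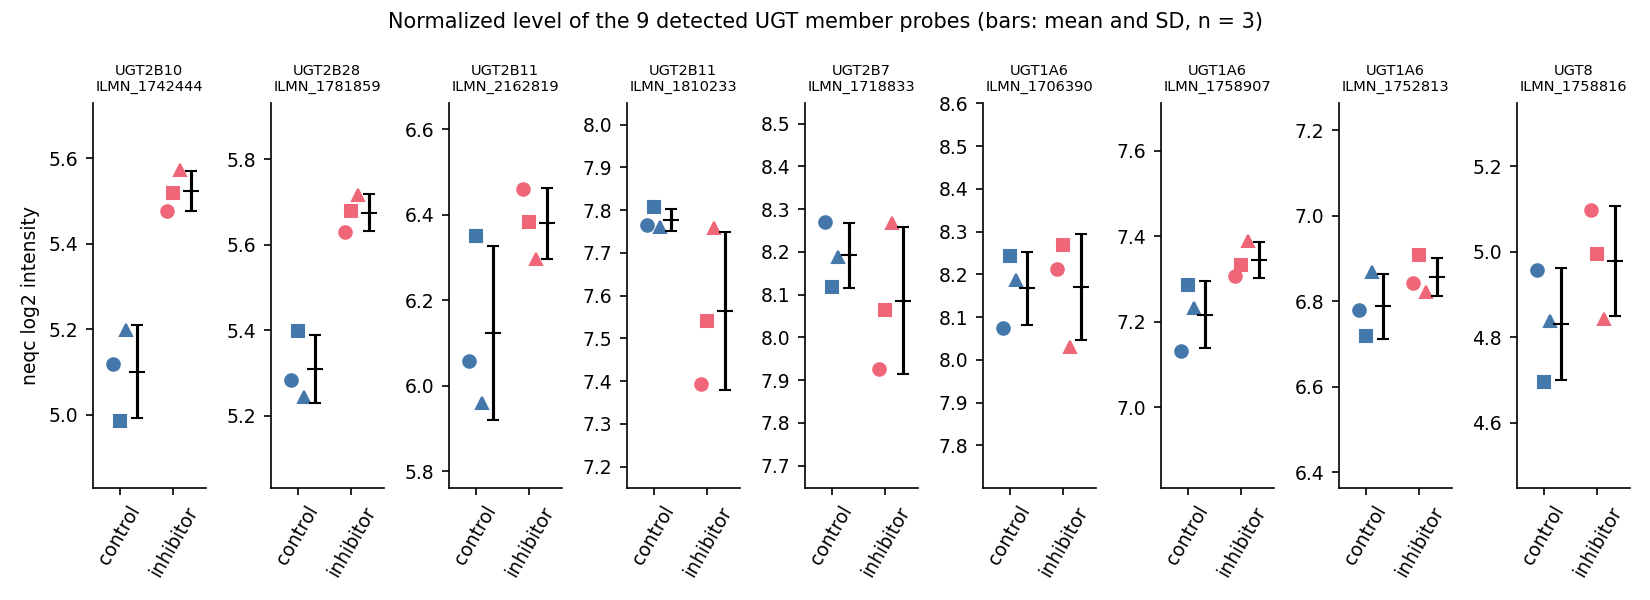
Normalized log2 intensity (y axis, each panel spans the same range of log2 units) of the 9 detected UGT probes in control (blue) and inhibitor (red) arrays, with circles, squares and triangles for replicates 1, 2 and 3 and bars for the mean and SD. UGT2B10 and UGT2B28 separate by group by at least 0.23, while UGT2B7 and UGT1A6 ILMN_1706390 overlap.

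UGT1A6, which conjugates small phenols such as paracetamol and serotonin, had 3 detected probes. ILMN_1706390 was at 8.07, 8.24 and 8.19 in the controls and at 8.21, 8.27 and 8.03 with the inhibitors, a log2 fold change of 0.0032 ± 0.09 (SE) with overlapping groups. ILMN_1758907 was at 7.13, 7.29 and 7.23 against 7.31, 7.33 and 7.39, a log2 fold change of 0.13 ± 0.08, and its groups were separated by 0.02. ILMN_1752813, annotated to another UGT1A6 transcript, was at 6.78, 6.72 and 6.87 against 6.84, 6.91 and 6.82, a log2 fold change of 0.07 ± 0.08 with overlap. The value of ILMN_1706390 has no settled direction, since it ran from −0.046 to 0.07 with 1 array left out and was below 0 without control replicate 1, inhibitor replicate 1 or inhibitor replicate 2. With median centring the probes had 0.14, 0.26 and 0.20 in the order given. Whether they also read other UGT1A transcripts through the shared exons was not tested, and the probes named for UGT1A1, UGT1A3, UGT1A4, UGT1A5, UGT1A7, UGT1A8, UGT1A9 and UGT1A10 were undetected.

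UGT8, the galactosylceramide synthase, was close to background. Its detected probe ILMN_1758816 had raw signals of 57.4, 54.8 and 55.0 in the controls and 63.2, 54.6 and 53.9 with the inhibitors, with bead standard errors of 1.52 to 2.29. The normalized values were 4.96, 4.70 and 4.84 against 5.10, 4.99 and 4.84, a log2 fold change of 0.15 ± 0.10 (SE). The groups overlapped, and inhibitor replicate 1 was the highest array. The log2 fold change was 0.079 without background correction and 0.069 with an offset of 50. It was 0.056 in the authors' series table with the offset of the main processing added.

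**Figure D3:**
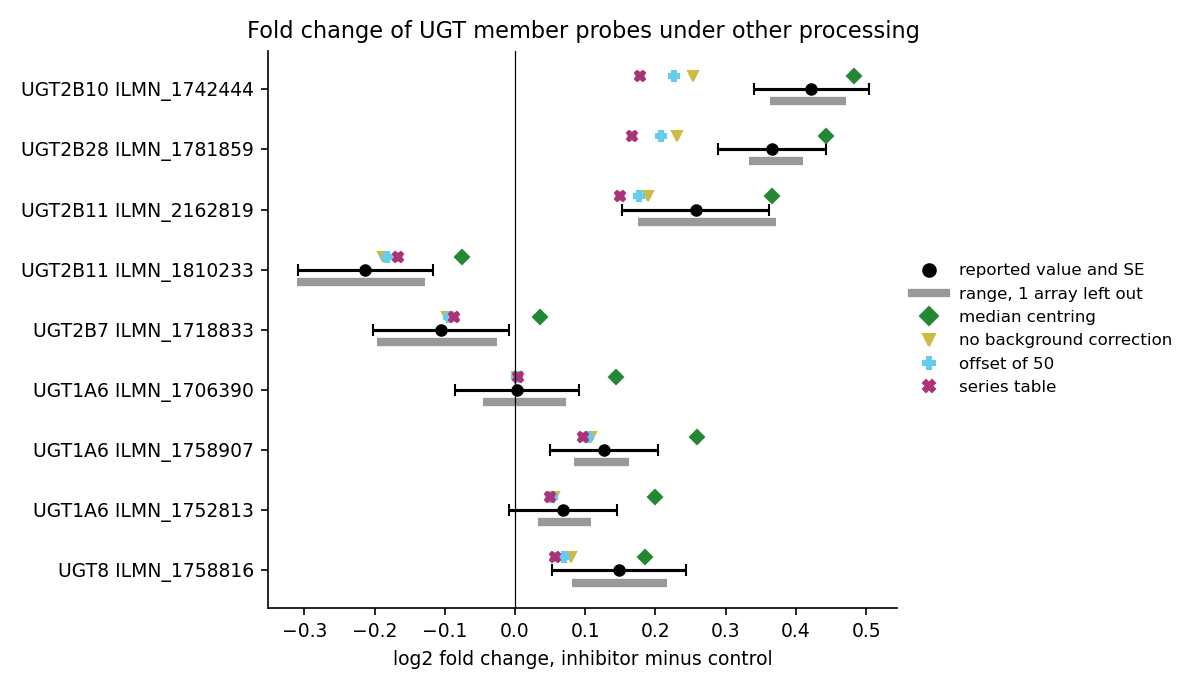
Log2 fold change (x axis, inhibitor minus control) of the 9 detected UGT probes, with the reported value and its SE in black, the range with 1 array left out in grey, and 4 other processing settings as symbols. UGT2B10 stays between 0.18 and 0.48 and UGT2B28 between 0.17 and 0.44, while UGT2B7 runs from −0.20 to 0.035 and turns positive with median centring. The lowest values of UGT2B10 and UGT2B28 are from the series table with the offset of the main processing added.

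Without control replicate 2 and inhibitor replicate 3, the arrays that stood apart, the log2 fold change was 0.34 for UGT2B10, 0.39 for UGT2B28, −0.23 for UGT2B7 and 0.15 for UGT8, from 2 arrays per group. The UGT2B11 probes were then further apart, at 0.41 for ILMN_2162819 and −0.30 for ILMN_1810233. The 2 UGT2B11 probes thus differed in direction with these arrays and without them. The UGT1A6 probes had 0.11 (ILMN_1706390), 0.14 (ILMN_1758907) and 0.05 (ILMN_1752813).

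Whether close paralogs moved together apart from the treatment was read from the deviation of each array from its group mean, which the difference between groups does not enter. The correlation of these deviations rests on 6 arrays with 2 means removed, so it is a description and is given without a p. UGT2B10 and UGT2B28, the pair with the highest fold changes, had r of −0.61. That value was reached or exceeded by 89.1% of all detected probes with UGT2B10 and by 80.9% with UGT2B28. Both probes were dim, and how far their deviations exceed bead error was not tested. UGT2B10 was lowest among the controls on replicate 2, at −0.12, where UGT2B28 was highest, at 0.09. On inhibitor replicates 1, 2 and 3 they were close, at −0.05, −0.0035 and 0.05 for UGT2B10 and −0.05, 0.0031 and 0.04 for UGT2B28.

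UGT2B10 and the dimmer UGT2B11 probe, ILMN_2162819, deviated in opposite directions, with r of −0.99. That value was reached or exceeded by 99.96% of all detected probes with UGT2B10 and by 99.97% with ILMN_2162819. The raw control signals of UGT2B10 were 60.8, 60.6 and 62.9, with bead standard errors of 1.85, 2.59 and 1.83. How far the deviations behind this r exceed bead error was not tested. With the brighter UGT2B11 probe, ILMN_1810233, UGT2B10 had r of 0.28, so the UGT2B11 probes give no single answer for that gene. The promoter windows of UGT2B10 and UGT2B11 were 90.1% identical. On control replicate 2 ILMN_2162819 was at 0.23 above its mean and on control replicate 3 at −0.16, where UGT2B10 was at −0.12 and 0.10. ILMN_2162819 and UGT2B28 had r of 0.63. The brighter UGT2B11 probe, ILMN_1810233, and UGT2B7 went together, with r of 0.86, a value that 3.61% of all detected probes reached with UGT2B7 and 6.99% with ILMN_1810233. That likeness lies in the inhibitor arrays, where UGT2B7 was at −0.16, −0.02 and 0.18 and UGT2B11 at −0.17, −0.02 and 0.19. In the controls, UGT2B7 was at 0.08, −0.07 and −0.0035 and UGT2B11 at −0.01, 0.03 and −0.02. The 2 UGT2B11 probes had r of −0.25 with each other.

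**Figure D4:**
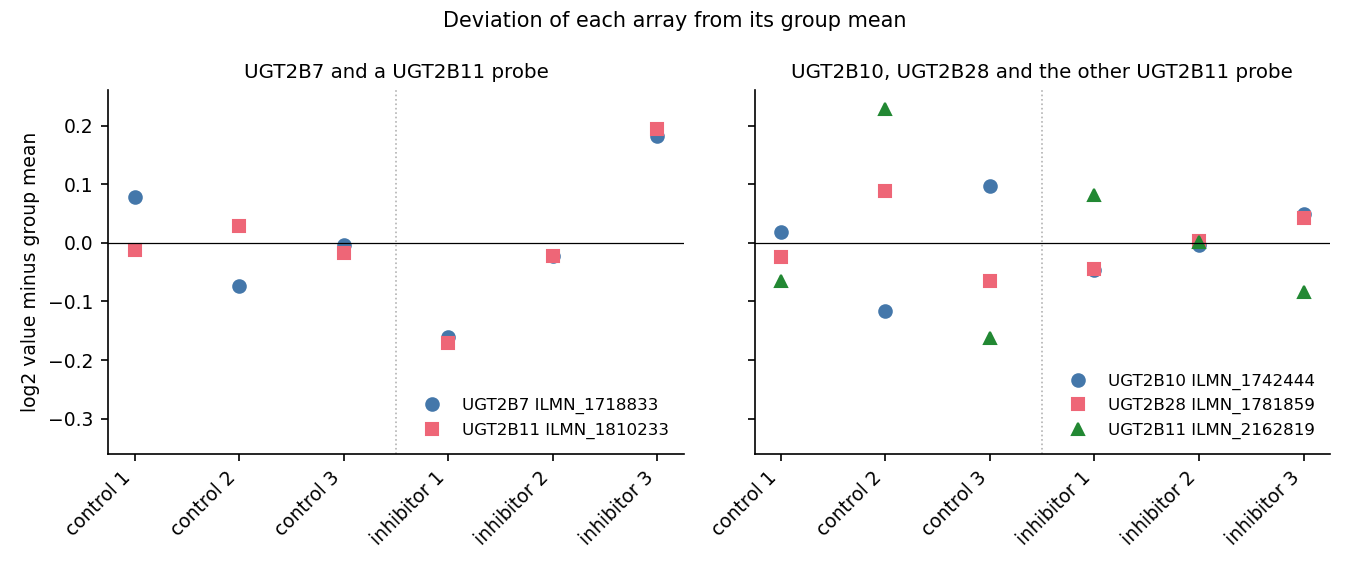
Deviation of the log2 value of each array from its group mean (y axis) for UGT2B7 with UGT2B11 ILMN_1810233 (left) and for UGT2B10, UGT2B28 and UGT2B11 ILMN_2162819 (right), 1 point per array. On the left the points of the inhibitor arrays nearly coincide, from −0.17 to 0.19, and on the right UGT2B10 and UGT2B11 lie on opposite sides of 0 on control replicates 2 and 3.

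Over the 10 pairs of the 5 UGT2B probes r ran from −0.99 to 0.86 with a median of 0.23, 6 above and 4 below 0. Over all 36 pairs of the 9 detected UGT probes the median was −0.01, with 18 above and 18 below 0. The 3 UGT1A6 probes had r of −0.29 to 0.24 among themselves. The highest r among the 36 was that of UGT2B7 with UGT2B11 ILMN_1810233, and the lowest that of UGT2B10 with UGT2B11 ILMN_2162819. The nucleotide sequences of the probes were not used here, so which transcripts each can bind was not tested.

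The genes nearest in pattern were sought among the 12183 genes with a detected probe, by the same correlation. For UGT1A6 ILMN_1706390, the UGT probe with the highest mean, they were SLC25A45, CSTF3, NXT2, ADAMTS13 and ABCB9, with r of 0.990 to 0.995. For UGT2B10 they were BORCS5, RBPJ, STAC, SLC2A11 and METTL22, with r of 0.987 to 0.997. They are the top of a ranking of all these genes over 6 arrays and are given as a description. SLC2A11, a sugar transporter, had a log2 fold change of −0.23 ± 0.08 (SE) and RBPJ, the DNA-binding factor of Notch signalling, 0.10 ± 0.08, against 0.42 for UGT2B10.

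Among UGT genes that are not in the list, 12 have 17 named probes, and 3 of these were detected on at least 3 arrays. UGT2B17, a testosterone-conjugating enzyme, was detected on all 6 arrays by 1 of its probes, ILMN_1808677, at 6.10, 6.21 and 6.28 in the controls and 6.31, 6.24 and 6.32 with the inhibitors. Its log2 fold change was 0.10 ± 0.08 (SE), with overlap. The other UGT2B17 probes, ILMN_1752214, ILMN_1801263 and ILMN_2373670, were detected on 0 arrays. UGT2A1 ILMN_1721926 and UGT2B4 ILMN_2206500 were detected on 4 and 3 arrays, with −0.0082 and −0.10. The second probes of UGT2A1 and UGT2B4 were detected on 0 arrays. The limma adjusted p of the 3 genes ran from 0.690 to 0.983.

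All 8 listed genes of UDP-glucuronic acid supply and glucuronide hydrolysis were detected, 6 higher and 2 lower with the inhibitors, with 0.03 as the median log2 fold change and 0.15 with median centring. Over all 12183 genes 52.1% were higher and the median was 0.0062. UGDH, which makes UDP-glucuronic acid, was at 7.22, 7.33 and 7.32 in the controls and 7.50, 7.34 and 7.36 with the inhibitors, a log2 fold change of 0.11 ± 0.08 (SE). UGP2, which makes UDP-glucose, had −0.08 ± 0.07 while its other detected probes had 0.09, 0.05 and 0.04, and SLC35D1, which carries UDP-glucuronic acid into the endoplasmic reticulum, had 0.10 ± 0.10. None of the 8 passed an unadjusted p of 0.05, which 10.1% of all genes did, and the lowest limma adjusted p was 0.657.

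Of 5 listed transporters that export glucuronides, 4 had a named probe and 3 of these were detected. ABCC4 had a log2 fold change of −0.18 ± 0.11 (SE), ABCC3 −0.12 ± 0.09 and ABCC2 0.01 ± 0.10, with a median of −0.12 that was 0.0080 with median centring. The other detected probe of ABCC4 had 0.07. None passed at the unadjusted threshold.

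Of 18 transcription factors reported to act on UGT genes, 12 had a named probe and 7 were detected, 5 higher and 2 lower, with 0.0073 as the median log2 fold change and 0.15 with median centring. FOXA1, a forkhead factor, was at 6.36, 6.23 and 6.30 in the controls and 6.46, 6.51 and 6.36 with the inhibitors, a log2 fold change of 0.15 ± 0.08 (SE). NFE2L2, the factor of the antioxidant response, had 0.14 ± 0.08 and FOXA2 0.09 ± 0.08. AHR, the receptor for dioxins and a known inducer of UGT1A genes, had 0.0073 ± 0.08. CDX2, whose core letters mark the UGT2 windows above, was near background, detected on 5 of 6 arrays, at 4.76, 4.87 and 4.66 in the controls and 5.03, 4.41 and 4.72 with the inhibitors, a log2 fold change of −0.04 ± 0.14. The lowest limma adjusted p of this list was 0.552.

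Of 14 sulfotransferases and related enzymes 12 had a named probe and 6 were detected, 1 higher and 5 lower, with −0.15 as the median log2 fold change, which was −0.0031 with median centring. SULT1A1, the phenol sulfotransferase, was at 10.81, 10.85 and 10.78 in the controls and 10.44, 10.44 and 10.72 with the inhibitors. The groups did not overlap, and the log2 fold change was −0.28 ± 0.09 (SE), with a limma adjusted p of 0.445. Its other detected probes had −0.15, −0.05 and −0.03, and SULT1A1 is a close paralog of other SULT1A genes, so which transcripts its probes read is uncertain. SULT1C2 had 0.20 ± 0.10 and TPMT, which methylates thiopurines, −0.15 ± 0.08.

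Of 16 enzymes of steroid and retinoid metabolism 11 were detected, 8 higher and 3 lower, with 0.02 as the median log2 fold change and 0.15 with median centring. HSD17B4, a peroxisomal enzyme that also oxidises oestradiol, was at 9.55, 9.44 and 9.59 in the controls and 9.75, 9.72 and 9.65 with the inhibitors, a log2 fold change of 0.18 ± 0.08 (SE). CYP1A1, an AHR target, had −0.21 ± 0.13, and HSD17B11 −0.11 ± 0.09 with 0.18 and 0.0075 on its other detected probes. Of 11 enzymes around galactosylceramide, the product of UGT8, 10 had a named probe and 9 were detected, 5 higher and 4 lower, with 0.0081 as the median and 0.16 with median centring. SPTLC2, a subunit of the enzyme that starts sphingolipid synthesis, had 0.26 ± 0.13 and GALC, which breaks galactosylceramide down, 0.14 ± 0.10. CERS2, a ceramide synthase, had −0.15 ± 0.08, and −0.07 on its other detected probe. The other SMPD1 probe had −0.38 ± 0.10, against −0.14 on the probe that stands for the gene. SPTLC1 had 0.06 on that probe and 0.09, −0.02, −0.20 and −0.07 on its others. SMPD1 and SPTLC1 were picked after their values were seen. Over the 6 lists from UDP-glucuronic acid supply onward, SULT1A1 and HSD17B4 had an unadjusted limma p under 0.05 by the probe that stands for each gene, which is 2 of 44 detected genes or 4.55%, where 10.1% of all genes did. After adjustment over all probes 0 of the 44 passed.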

How the data were processed

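The deposited files of each array give, per the file headers, the mean bead signal of each probe as an intensity on a linear scale, its bead standard deviation, its number of beads and a detection score. The values show no background subtraction and no normalization between arrays. A deposited table of the whole series holds an intensity per probe that the authors mapped onto the distribution of control replicate 1, as its values show. Per the submitters' processing notes BeadStudio was used, and its version and the normalization method are not given in the sources used here.

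Both kinds of table carry different probe identifiers and were matched through the order of signals within every array, which was unique for all 48803 probes. Of these, 28098 probes had 1 gene symbol, 13 several and 20692 none. Signals were processed with limma's neqc (limma 3.58.1, R 4.3.3; offset 16, negative controls inferred from detection), and 21928 probes, those detected (score over 0.95) on 3 or more of the 6 arrays, were tested with lmFit and eBayes, two-sided, with Benjamini-Hochberg adjustment over all of them. The detected probe with the highest mean stood for a gene. Promoter windows were aligned globally with Biopython 1.88 (match 1, mismatch −1, gap opening −2, gap extension −0.5) in place of a planned comparison of proteins, which was not run. The limma step was tested on simulated data. Figures were drawn with matplotlib 3.10.9.

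The members and gene lists were chosen with earlier results of these data known. Named genes are all UGT genes, up to 3 genes per list with the lowest p, FOXA2, CDX2 and AHR whatever their p, and the 5 genes nearest in pattern to 2 UGT probes. SMPD1 and SPTLC1 are named for their other probes. Alternatives covered background correction, normalization, offset, the series table, detection filters, the replicate number as a block and each array left out. The series table was put on the log2 scale after the offset of the main processing had been added to its intensities. Arrays of this kind have no depth, and the precision is limited by how many there are. No 2 arrays of a group were alike beyond 433 of 48803 equal signals.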

Additional observations from a re-analysis of the deposited data

How the results depend on the processing

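Probes past an adjusted p of 0.05 numbered 0 with limma in each alternative, while those at an unadjusted p under 0.05 numbered 2199 and from 1310 without inhibitor replicate 1 to 4251 without inhibitor replicate 3. Without control replicate 1, without control replicate 2 and without inhibitor replicate 2 they were 1510, 1488 and 1426, with no detection filter 4105, and with median centring 4347, of which 4099 were higher and 248 lower. Of UGT2B10, the log2 fold change was 0.25 without background correction, 0.23 with an offset of 50 and 0.18 in the series table with the main offset added. Of UGT2B28 it was 0.23, 0.21 and 0.17 in the same settings and 0.44 with median centring. Median centring moved the median of all probes to 0.10. With median centring UGT1A6 had 0.14 (ILMN_1706390), 0.20 (ILMN_1752813) and 0.26 (ILMN_1758907), UGT2B7 0.035 and UGT2B11 ILMN_1810233 −0.075. Without control replicate 2 and inhibitor replicate 3, chosen after the data were seen, UGT1A6 ILMN_1706390 had 0.11 and UGT2B11 ILMN_2162819 0.41. With 1 array left out, UGT2B10 had 0.36 to 0.47, UGT2B28 0.33 to 0.41, UGT2B7 −0.20 to −0.03 and UGT8 0.08 to 0.22. UGT2B11 then had 0.18 to 0.37 (ILMN_2162819) and −0.31 to −0.13 (ILMN_1810233). UGT1A6 had −0.046 to 0.07 (ILMN_1706390), 0.08 to 0.16 (ILMN_1758907) and 0.03 to 0.11 (ILMN_1752813). Replicate numbers gave no pairing, as arrays with equal numbers had deviations that correlated at 0.0890, −0.258 and −0.213, and 0 of 6 arrays correlated best with their own number. With the replicate block 0 probes passed, with 1714 at the unadjusted threshold. The fold changes could not move with the block, since every replicate number is in both groups. Why the values depend on the other settings was not tested. Low signal over background limits UGT2B10, UGT2B28 and UGT8.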
